A study of Homo sapiens with 6 samples.

Results

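The genes described here are 8 genes that lie at or near loci associated with Alzheimer disease risk and whose products work at or near the endocytic pathway. They are BIN1, PICALM, CD2AP, FERMT2, RIN3, ABCA7, SH3KBP1 and MADD, taken by symbol from the deposited table, which lists 18056 genes. All 8 were present, and 7 of them (all except RIN3) passed the filter on low counts, as did 13842 of the 18056 genes. Transcript levels were measured by polyadenylated RNA sequencing in 6 libraries of forebrain organoids, which are self-organising cultures that resemble the developing dorsal forebrain. The starting cells were the human pluripotent line DYR0100, made by reprogramming and labelled wild type, so both groups share 1 genetic background. Vehicle was given to 3 of them and 5 µM Aβ42, the aggregation-prone form of amyloid-β, to the other 3. The labels give the exposure as 6 days, put all libraries in 1 batch and state no organoid age. The labels call the replicates independent, without naming separate differentiations, so p-values measure the spread between these libraries.

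Endocytosis brings membrane and its cargo into the cell in vesicles, many of them coated with clathrin, which then fuse with early endosomes under the control of the small GTPase RAB5. In neurons the amyloid precursor protein is taken up along this route, and endosomes are a main site of its first cleavage towards amyloid-β. Coat and adaptor proteins (PICALM), membrane-curving proteins (BIN1), SH3 scaffolds that link receptors to actin (CD2AP, SH3KBP1), and exchange factors for RAB GTPases (RIN3 for RAB5, MADD for RAB3) act at different steps of membrane traffic. FERMT2 couples integrins to the cell interior, and ABCA7 moves lipids across membranes.

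Total estimated counts lay between 16465390 and 16742958 per library. Of 10 dorsal forebrain markers, all 10 had a mean above 1 TPM (a level scaled for gene length and library size), and their summed level was 2044 to 2089 TPM in vehicle and 1875 to 2016 TPM with Aβ42. Of 14 microglia markers, CD68 was the 1 gene with a mean above 1 TPM, and C1QA, C1QB, C1QC, TYROBP and TREM2 were at 0 in every library. The microglia list summed to 4.86 to 5.87 TPM in vehicle and 5.48 to 6.49 TPM with Aβ42. Aβ42 replicate 2 stood apart from the other Aβ42 libraries: its counts differed less from vehicle replicate 1 (chi-square of 3.16 per gene) than from Aβ42 replicate 1 (9.4) or Aβ42 replicate 3 (8.48). Counts for the members and for the lists of related genes as a whole are given with and without it. For called genes of those lists, the value without a library is given where leaving it out changed the log2 fold change over 1.5 times. The 7 choroid plexus markers summed to 7599 TPM in vehicle replicate 2 and 6679 TPM in Aβ42 replicate 2, against 2846 to 3977 TPM in the other 4 libraries, and their part in the results was not tested.

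BIN1 and CD2AP were the members whose normalised counts did not overlap between the groups, 2 of 7, where 27.0% of all tested genes did not overlap. Their promoters (RefSeq, GRCh38.p14) are shown for that reason alone. The members without overlap also depended on the scale, with SH3KBP1 added in TPM, and FERMT2 and MADD with upper-quartile scaling. Each sequence runs 5′ to 3′ on the gene's strand from 250 bases before to 50 bases after the annotated start. The BIN1 window is chr2:127107105-127107404 on the minus strand, and the CD2AP window is chr6:47477539-47477838 on the plus strand. Capitals mark GC boxes (GGGCGG) and core letters of the cyclic AMP response element (TGACG, called the CRE core), on either strand.
BIN1: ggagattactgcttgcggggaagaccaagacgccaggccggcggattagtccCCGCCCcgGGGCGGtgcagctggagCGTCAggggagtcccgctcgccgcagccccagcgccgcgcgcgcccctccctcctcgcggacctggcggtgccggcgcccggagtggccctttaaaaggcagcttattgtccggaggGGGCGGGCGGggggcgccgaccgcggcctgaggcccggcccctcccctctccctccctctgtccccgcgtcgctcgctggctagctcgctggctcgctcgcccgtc
CD2AP: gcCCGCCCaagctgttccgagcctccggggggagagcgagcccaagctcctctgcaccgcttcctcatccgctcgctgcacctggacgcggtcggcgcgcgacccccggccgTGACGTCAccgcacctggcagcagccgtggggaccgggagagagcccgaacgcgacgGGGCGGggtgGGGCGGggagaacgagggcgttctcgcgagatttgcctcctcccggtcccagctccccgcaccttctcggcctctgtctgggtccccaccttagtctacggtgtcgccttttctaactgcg

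The BIN1 window held 4 GC boxes, starting 198, 190, 56 and 52 bases before the annotated start, the last pair overlapping, and 1 CRE core at 173 bases. The CD2AP window held 3 GC boxes, at 248, 81 and 71 bases, and 2 CRE cores on opposite strands that overlap at 138 and 135 bases. No CCAAT box (CCAAT), TATA box (TATAAA) or E-box of the form CACGTG was found in either window. Other forms of the E-box were not searched. Among 35116 RefSeq promoters of the same length, 45.0% held a GC box and 24.6% a CRE core. GC content was 75.3% in the BIN1 window and 70.7% in the CD2AP window, above 91.0% and 81.9% of all promoters. These matches describe the letters of the windows and show no binding.

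The 8 genes covered a wide range of levels. PICALM was the most abundant, at 172.84 to 186.77 TPM over the 6 libraries, followed by FERMT2 (77.21 to 80.05 TPM), BIN1 (71.08 to 88.80 TPM) and MADD (63.29 to 69.64 TPM). SH3KBP1 lay at 41.75 to 47.80 TPM, CD2AP at 11.53 to 15.05 TPM, ABCA7 at 3.85 to 5.35 TPM and RIN3 at 0.09 to 0.35 TPM. The ranges of FERMT2 and BIN1 overlapped, and every other pair of neighbours in this order was separated in all libraries. By mean level PICALM exceeded 95.4% of the genes in the table and BIN1 86.5%, while ABCA7 exceeded 35.7% and RIN3 17.2%. The spread between vehicle libraries was close to counting error for most members: for BIN1 the coefficient of variation was 1.74%, where counting alone gives 3.14%, and for ABCA7 it was 7.02% against 7.49%. For PICALM it was above counting error, at 3.63% against 1.57%. With Aβ42 the spread was wider than in vehicle for BIN1 (10.9%), CD2AP (8.08%), ABCA7 (13.7%) and MADD (6.09%).

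**Figure D1:**
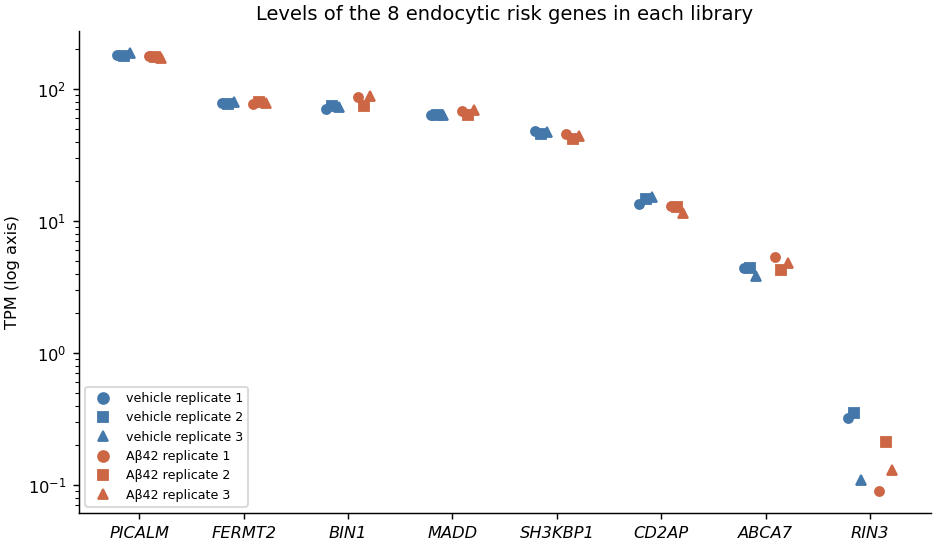
TPM of the 8 genes in each library on a log axis, with blue for vehicle, orange for Aβ42 and 1 symbol per replicate number. PICALM is highest (172.84 to 186.77 TPM) and RIN3 lowest (0.09 to 0.35 TPM), and by group mean BIN1 and FERMT2 change places between the groups.

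The comparison of exposed with unexposed organoids was made with edgeR's quasi-likelihood test, once without a block (the main fit) and once with the replicate number as a block. Without the block, 0 of the 7 tested members and 0% of the 13842 tested genes reached an adjusted p-value under 0.05. At an unadjusted p-value under 0.05 there was 1 member (BIN1, higher), against 23.9% of all tested genes, so the members' share was no higher than the background. DESeq2 also gave 0 members past the adjusted threshold (5.81% of all genes) and 1 under an unadjusted 0.05 (18.1% of all genes). With the replicate number as a block, 1 of 7 members passed (BIN1, higher), where 14.2% of all tested genes did (7.12% higher, 7.05% lower). Without Aβ42 replicate 2, and with no block, 3 of 7 members passed (BIN1, ABCA7 and MADD, all higher), where 23.1% of all genes did. The groups did not overlap in 2 of 7 members, BIN1 (higher) and CD2AP (lower), where 27.0% of all tested genes did not overlap (13.6% higher, 13.4% lower). In 5 of 7 members the difference had 1 direction in all 3 pairs of the same number, as in 50.2% of all tested genes. The median log2 fold change (Aβ42 over vehicle) of the 7 members was 0.05, with 5 positive and 2 negative, and that of all tested genes was 0.003.

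**Figure D2:**
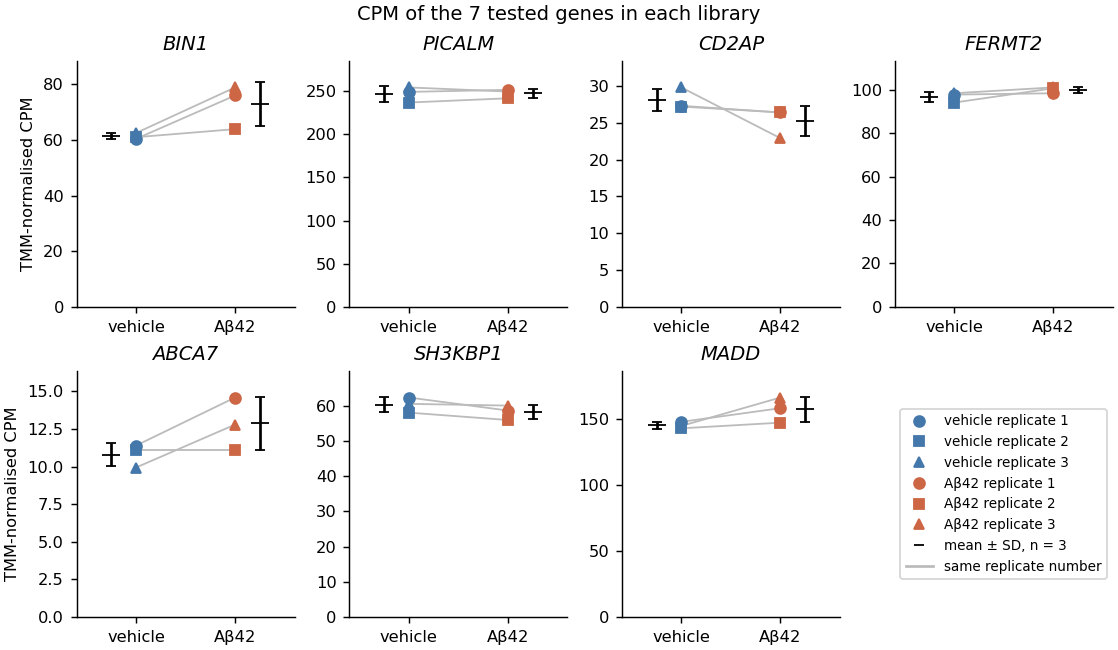
TMM-normalised CPM of the 7 tested genes in vehicle and Aβ42 libraries, with the mean ± SD (n = 3) beside each group and grey lines joining libraries of the same replicate number. BIN1 is above all vehicle values in the 3 Aβ42 libraries, with Aβ42 replicate 2 (63.9 CPM) close to vehicle.

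BIN1 (Entrez gene ID 274, GRCh38.p14 chr2:127048023-127107154, minus strand) encodes an amphiphysin-family protein whose BAR domain senses and forms curved membrane. In CPM (counts divided by the library's effective total, after TMM scaling), vehicle replicates 1 to 3 held 60.4, 61.0 and 62.5, and the Aβ42 replicates 76.0, 63.9 and 78.9. Aβ42 replicates 1 and 3 were well above every vehicle library, while replicate 2 exceeded the highest vehicle value by less than the counting error of 3.0% per library. The means were 61.3 ± 1.07 and 72.9 ± 7.95 CPM (SD, n = 3 each). The log2 fold change was 0.25 ± 0.07 (SE), or 1.19-fold with a 95% interval of 1.06 to 1.33. Its adjusted p-value in edgeR's test was 0.0987 without the block and 0.0183 with it, and BIN1 was higher in 3 of 3 pairs of the same number (log2 differences of 0.33, 0.07 and 0.34). Over 17 alternatives the adjusted p-value ran from 0.00122 (without Aβ42 replicate 2, log2 fold change 0.34) to 0.352 (without Aβ42 replicate 3, 0.19). Leaving out Aβ42 replicate 1 gave 0.288 and leaving out vehicle replicate 2 gave 0.31. Measured as log2(TPM + 1), the BIN1 difference was 0.19, where the median gene moved by -0.04.

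Marker lists of several cell types differed between the same libraries as BIN1. The summed TPM of 15 proliferation genes was 613.7 to 736 in vehicle and 392.3 to 563.6 with Aβ42, that of 7 intermediate progenitor genes 329.8 to 378.3 and 230.5 to 277.4, and that of 11 neuronal genes 5086 to 5450 and 4838 to 4933, without overlap. Gene by gene in counts, all 15 proliferation genes and 6 of 7 intermediate progenitor genes had negative log2 fold changes (medians -0.47 and -0.757), while the neuronal genes divided into 6 positive and 5 negative (median 0.004). Oligodendrocytes are cells in which BIN1 is known to be abundant, and the 9 genes of that lineage in the table summed to 5.64 to 6.75 TPM in vehicle and 4.86 to 5.44 TPM with Aβ42. The part of cell composition in the BIN1 difference was not tested, and in these bulk libraries more RNA per cell and more cells of a type cannot be told apart. The gene's closest relative, AMPH, which encodes amphiphysin, had 30.2, 28.9 and 27.4 CPM in vehicle and 35.8, 27.6 and 35.4 CPM with Aβ42, so it too was high in Aβ42 replicates 1 and 3, but its groups overlapped. Its log2 fold change was 0.19 ± 0.10 (SE), and its adjusted p-value 0.268 (edgeR). The log2 ratio of BIN1 to AMPH was 1.72 ± 0.10 in vehicle and 1.75 ± 0.09 with Aβ42 (SD, n = 3 each), a difference of 0.04 with a two-sided exact permutation p-value of 0.8.

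Of all tested genes, those whose profile over the 6 libraries lay nearest to that of BIN1 were VPS37D, SEC14L1 and HEBP1, at distances of 0.052, 0.063 and 0.064 (Euclidean distance between log2 CPM profiles centred per gene, where the median gene lay at 0.459). VPS37D, which encodes an ESCRT-I subunit of the endosomal sorting machinery, had 13.3, 13.4 and 13.4 CPM in the vehicle libraries and 16.6, 13.6 and 16.8 CPM in the Aβ42 libraries. SEC14L1 was at 140.7, 145.8 and 151.0 CPM and at 181.1, 153.0 and 181.0 CPM. In both genes, as in BIN1, Aβ42 replicate 2 lay just above the vehicle libraries and Aβ42 replicates 1 and 3 further above them. The genes were picked for their nearness to the BIN1 profile, so this likeness follows from the selection and is not a separate result. A link to the endosomal function of VPS37D was not tested.

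PICALM (8301, chr11:85957175-86069860, minus strand) encodes a clathrin assembly protein that binds phosphoinositides, clathrin and the AP-2 adaptor. Vehicle libraries held 248.9, 236.6 and 254.1 CPM and Aβ42 libraries 251.3, 241.5 and 249.3 CPM, so the groups overlapped throughout. The log2 fold change was 0.00 ± 0.05 (SE; edgeR, adjusted p-value 0.958), and the 95% interval of the fold ran from 0.934 to 1.08. The sign of this near-zero difference was negative in both fits to log-scaled TPM (-0.04 in each, where the median of all genes was -0.04 and -0.043) and in 3 of the fits that left out 1 library. Its neuronal relative SNAP91, also called AP180, had a log2 fold change of -0.05 ± 0.05 (0.566). The log2 ratio of PICALM to SNAP91 was 0.38 ± 0.06 in vehicle and 0.44 ± 0.04 with Aβ42 (SD, n = 3 each; two-sided exact permutation p-value 0.3).

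CD2AP (23607, chr6:47477789-47627263, plus strand) and SH3KBP1 (30011, chrX:19533977-19887600, minus strand) encode related scaffolds, the second also called CIN85, that bind CBL ubiquitin ligases and actin-capping protein through SH3 domains and nearby motifs. CD2AP had 27.3, 27.2 and 29.8 CPM in the vehicle libraries and 26.4, 26.4 and 22.9 CPM in the Aβ42 libraries. All 3 Aβ42 values lay below the vehicle values, with Aβ42 replicate 3 the lowest and the other 2 below the lowest vehicle value by less than the counting error of 4.76%. The log2 fold change was -0.16 ± 0.08 (SE), with a 95% interval of -0.34 to 0.02 and adjusted p-values of 0.264 without and 0.218 with the block in edgeR's test. Over all 17 alternatives it stayed negative (-0.22 to -0.09) and passed in 0 of them. It was -0.09 without Aβ42 replicate 3.

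SH3KBP1 had 62.4, 58.1 and 60.6 CPM in the vehicle libraries and 58.7, 56.0 and 60.1 CPM in the Aβ42 libraries, with overlapping groups. Its log2 fold change was -0.05 ± 0.06 (SE), with an interval of -0.17 to 0.07 and 0.602 as its adjusted p-value (edgeR). On the TPM scale the SH3KBP1 groups did not overlap (45.74 to 47.80 TPM in vehicle, 41.75 to 45.39 TPM with Aβ42), a scale on which the median of all genes moved by -0.043 and SH3KBP1 by -0.10 as log2(TPM + 0.1). The log2 ratio of CD2AP to SH3KBP1 in TPM was -1.69 ± 0.10 in vehicle and -1.81 ± 0.11 with Aβ42 (SD, n = 3 each; two-sided exact permutation p-value 0.3), so CD2AP was at 0.263 to 0.326 of the level of SH3KBP1 in every library.

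The transcript length implied by the ratio of count to TPM varied more for CD2AP than for most genes. After scaling to the median gene of each library, it deviated from the gene's mean by -5.0% in vehicle replicate 2 and by 4.3% in Aβ42 replicate 2. The range over the 6 libraries was 9.8%, wider than for 90.4% of 10920 genes, whose median range was 1.6%. For SH3KBP1 the range was 4.5%, for BIN1 1.9% and for PICALM 1.7%, and for MADD and FERMT2 it was 0.4% and 0.3%. The groups overlapped in each of these 6 genes, where 38.5% of the 10920 genes did not overlap. The CD2AP log2 fold change was -0.22 on the log2(TPM + 0.1) scale against -0.16 in counts, while the median of all genes moved from 0.003 to -0.043. The annotation (GENCODE 29) places a processed pseudogene inside CD2AP on the same strand, and its part in these values was not tested.

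RIN3 (79890, chr14:92513781-92688994, plus strand) encodes a RAB5 exchange factor that binds BIN1 and CD2AP. It had 7, 8 and 2 counts in vehicle and 2, 4 and 3 counts with Aβ42, or 0.121 to 0.486 CPM in vehicle and 0.121 to 0.239 CPM with Aβ42. Most of these values lie near the limit of 3 counts (0.179 to 0.182 CPM) that a count of 0 would allow, so a difference was not detectable at this depth and no fold is given. Its relative RIN2 was at 9.07 TPM in vehicle and 9.25 TPM with Aβ42 (means, n = 3 each), with a log2 difference of 0.08 ± 0.09 (SE; adjusted p-value 0.609 in edgeR's test).

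MADD (8567, chr11:47269188-47330031, plus strand) encodes a DENN-domain exchange factor for RAB3 GTPases that also binds the tumour necrosis factor receptor. It had 148.1, 143.2 and 145.0 CPM in the vehicle libraries and 158.5, 147.5 and 166.6 CPM in the Aβ42 libraries. Aβ42 replicates 1 and 3 were above every vehicle library, and Aβ42 replicate 2 lay between vehicle replicates 1 and 3. The log2 fold change was 0.11 ± 0.05 (SE), or 1.08-fold with an interval of 0.999 to 1.17. The adjusted p-value in edgeR's test was 0.216 without and 0.159 with the block. It passed in 1 of 17 alternatives, without Aβ42 replicate 2 (0.0268, log2 fold change 0.16), and was 0.07 without Aβ42 replicate 3 (0.554). The annotation lists an antisense gene over MADD, and over FERMT2, and whether counting used strand is not given in the sources used here. It also lists an unprocessed pseudogene over MADD on the same strand, whose part in these values was not tested.

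FERMT2 (10979, chr14:52857273-52951050, minus strand) encodes kindlin-2, which activates integrins together with talin. It had 97.8, 94.1 and 98.4 CPM in the vehicle libraries and 98.4, 100.7 and 101.1 CPM in the Aβ42 libraries. The groups met at 98.4 CPM, and the log2 fold change was 0.05 ± 0.05 (SE), with a fold interval of 0.963 to 1.11 and 0.543 as its adjusted p-value (edgeR). Its epithelial relative FERMT1 had 1 to 4 counts per library, too few to compare.

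ABCA7 (10347, chr19:1040107-1065572, plus strand) encodes a lipid transporter with a part in phagocytosis. It had 11.4, 11.1 and 9.94 CPM in the vehicle libraries and 14.6, 11.1 and 12.8 CPM in the Aβ42 libraries. Aβ42 replicates 1 and 3 were above all vehicle libraries, and Aβ42 replicate 2 was level with vehicle replicate 2. The log2 fold change was 0.25 ± 0.12 (SE), the same size as for BIN1 but less precise, with counting error at 7.14% and a 95% interval of -0.02 to 0.52. The adjusted p-value in edgeR's test was 0.234 without and 0.153 with the block. It passed in 2 of 17 alternatives, without Aβ42 replicate 2 (0.0408) and with the libraries numbered 2 left out of both groups in the fit with the block (0.0495), and was 0.572 without Aβ42 replicate 1 (log2 fold change 0.15). ABCA1, the cholesterol exporter related to it, had a log2 fold change of -0.09 ± 0.07 (0.476). The log2 ratio of ABCA7 to ABCA1 in TPM was -1.76 ± 0.21 in vehicle and -1.44 ± 0.23 with Aβ42 (SD, n = 3 each), a difference of 0.31 with a two-sided exact permutation p-value of 0.2. Over the 6 ratios of members to relatives computed, 2 of them resting on at most 8 counts per library of 1 gene (RIN3 to RIN2 and FERMT2 to FERMT1), the adjusted values were 0.45 to 0.8, and 0.1 is the smallest p-value that 3 against 3 libraries allow.

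**Figure D3:**
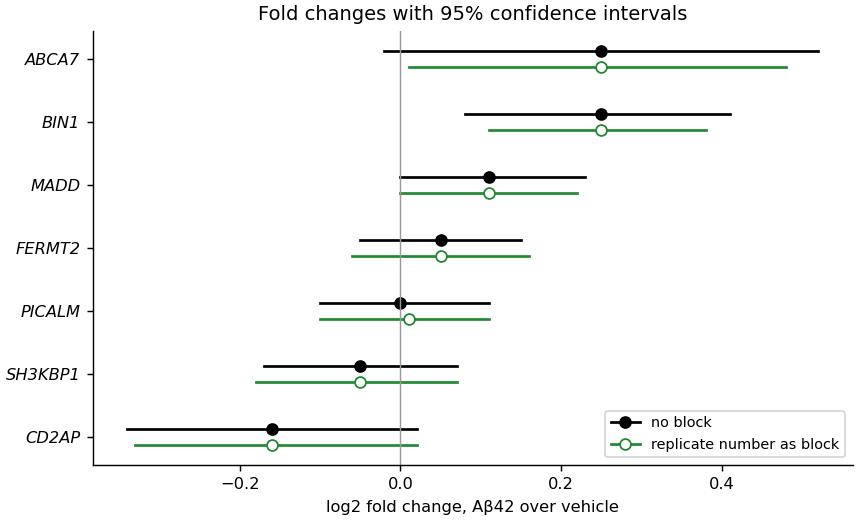
Log2 fold changes (Aβ42 over vehicle) of the 7 tested genes with 95% confidence intervals, in black without a block and in green with the replicate number as a block. The BIN1 interval lies above 0 in both fits, and the CD2AP, SH3KBP1, PICALM and FERMT2 intervals cross 0 in both.

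**Figure D4:**
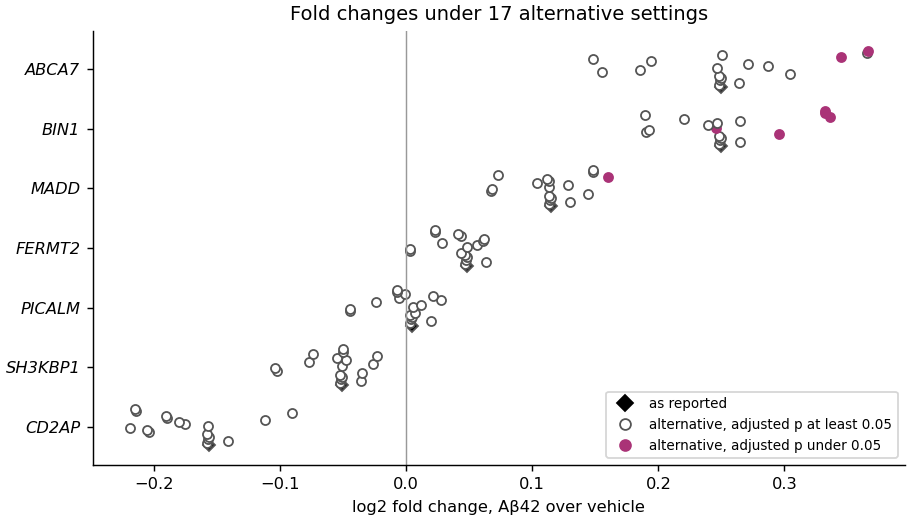
Log2 fold changes of the 7 tested genes under 17 alternative settings, 1 point per setting, coloured where the adjusted p-value was under 0.05. Passing points are seen for BIN1 (5 of 17), ABCA7 (2 of 17) and MADD (1 of 17), and PICALM lies on both sides of 0.

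The machinery around these genes was described through 8 lists holding 192 genes, 183 of them tested. Without the block 0 of the 183 passed in edgeR's test, 38 had an unadjusted p-value under 0.05 (21 higher, 17 lower, against 23.9% of all genes), and DESeq2 called 7 (5.81% of all genes). With the block 24 rose or fell (14 higher, 10 lower), close to the 14.2% of all tested genes. Without Aβ42 replicate 2, and with no block, 41 of 184 passed, where 23.1% of all genes did. With the libraries numbered 2 left out of both groups, and with the block, 15 of the 24 also passed. NUMB, PACSIN3, CBLB, RAB11FIP5, HRAS, RAB3GAP2, SYTL4, ABCA4 and SORL1 did not. The 24 were chosen on values that include these same libraries, so this is no independent check. The calls named below are those of edgeR's test with the block, with fold changes from the fit without it.

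Of 34 tested clathrin coat and adaptor genes, 2 rose and 0 fell, where 14.2% of all tested genes were called. The median log2 fold change was 0.03. CLTCL1, which encodes the second clathrin heavy chain, rose from 13.7 ± 1.04 to 19.8 ± 3.76 CPM (SD, n = 3 each; log2 fold change 0.53 ± 0.14 SE, adjusted p-value 0.0021), and NUMB, an endocytic adaptor and Notch regulator, rose by 0.20 (0.0275). CLTC, the main clathrin heavy chain, averaged 752.5 CPM in vehicle libraries and 710.6 CPM in Aβ42 libraries (-0.08, 0.26). Of 22 membrane bending and scission genes, 3 rose and 0 fell, with a median of 0.07. These were PACSIN3 (0.41, 0.024) and TRIP10 (0.37, 0.0313), both F-BAR proteins, and SH3GL2 (0.23, 0.0167), which encodes the synaptic endophilin A1 and was at 0.13 without Aβ42 replicate 1.

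Among 17 partners of CD2AP and SH3KBP1 and genes of actin capping and branching, 2 rose and 2 fell. The median was -0.03, and 14.2% of all tested genes were called. SYNPO, which encodes the actin-binding protein synaptopodin, rose by 0.34 (adjusted p-value 0.019) and ARPC2, an ARP2/3 subunit, by 0.19 (0.0269). CBLB, a ubiquitin ligase bound by both scaffolds, fell from 104.6 ± 13.2 to 86.2 ± 6.61 CPM (log2 fold change -0.28, 0.0201, and -0.18 without vehicle replicate 2), and CTTN, which encodes cortactin and binds CD2AP, fell from 101.4 to 87.9 CPM (-0.21, 0.0249, and -0.33 without Aβ42 replicate 2).

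Of 28 genes of the RAB5 cycle and early endosome, 1 rose and 2 fell, where 14.2% of all tested genes were called. The median was 0.03. RAB11FIP5, a RAB11 effector, rose by 0.20 (adjusted p-value 0.0384). HRAS (-0.25, 0.0369) and RAB31 (-0.28, 0.00731), a RAB5-related GTPase, were lower, with RAB31 at 49.3, 62.7 and 55.9 CPM in vehicle and 42.1, 52.4 and 43.6 CPM with Aβ42. Of 29 RAB3 and DENN-domain regulators, 3 rose and 1 fell, with a median of 0.03. RAB3GAP2 (0.16, 0.0353), SYTL4 (0.47, 0.0282) and RAB3B (0.36, 0.0035) were higher. DENND1B, a RAB35 exchange factor of clathrin-coated vesicles, fell from 23.8 ± 1.72 to 18.0 ± 1.87 CPM (-0.41, 0.00377).

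Of 17 genes of the kindlin and talin adhesion complex, 0 rose and 2 fell, where 14.2% of all tested genes were called. The median was -0.03. PARVA, which encodes the ILK partner α-parvin, had 27.2, 34.6 and 26.7 CPM in the vehicle libraries and 16.8, 26.7 and 17.2 CPM with Aβ42 (-0.54, adjusted p-value 0.000542), and ITGB5 had a log2 fold change of -0.32 (0.00632, and -0.49 without Aβ42 replicate 2). Of 10 ABCA and ABCG genes, 2 rose and 1 fell, with a median of -0.01. ABCA4 (0.92, 0.00557) and ABCA5 (0.27, 0.0174) were higher and ABCA8 (-1.50, 0.00484) lower, the last at 1.66 and 0.58 CPM. ABCA4 had 2.40, 3.77 and 3.05 CPM in vehicle and 4.75, 8.97 and 3.78 CPM with Aβ42, and leaving out Aβ42 replicate 2, the highest library, brought the log2 fold change to 0.47. It passed in 1 of 17 alternatives, the block. Of 26 retromer and endosomal recycling genes, 1 rose (WASHC1, 0.23, 0.00978) and 2 fell (WASHC2C, -0.21, 0.0266, and SORL1, -0.16, 0.0402), with a median of -0.03. SORL1, a sorting receptor for the amyloid precursor protein, went from 389.8 to 348.5 CPM, and its log2 fold change was -0.08 without vehicle replicate 2. WASHC1 and WASHC2C have near-identical gene copies among which counting can divide reads, so their levels are uncertain. The 9 astrocyte markers summed to 719.7 to 834.5 TPM in vehicle and 575.8 to 739.2 TPM with Aβ42, and their part in these calls was not tested.

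**Figure D5:**
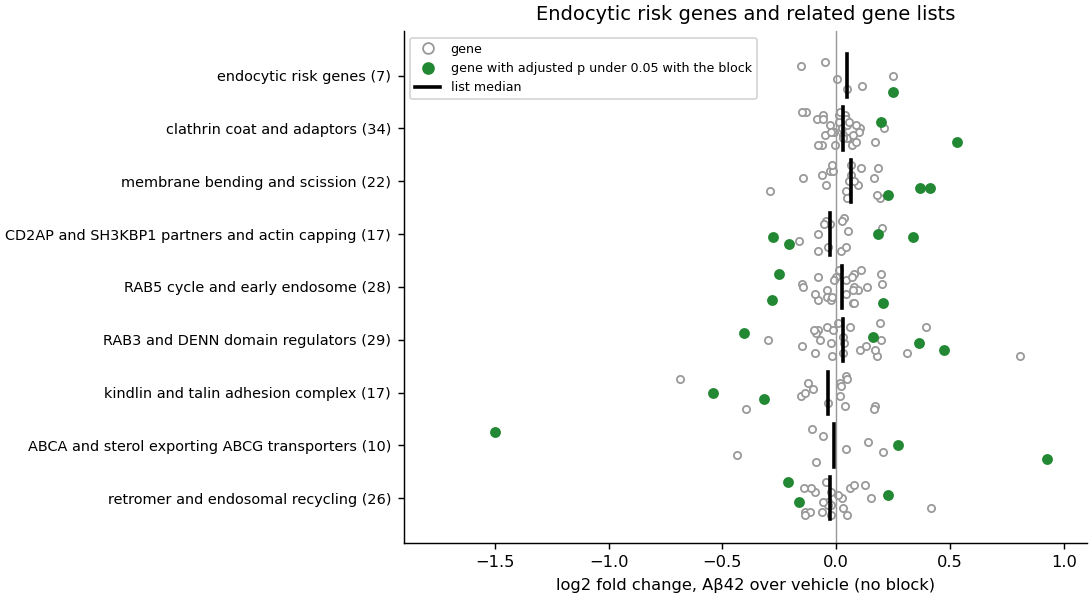
Log2 fold changes without the block of the 7 tested risk genes and of 8 lists of related genes, with the number tested in parentheses, black bars for list medians and green points for genes with an adjusted p-value under 0.05 in the fit with the block. All medians lie between -0.03 and 0.07, and BIN1 is the green point among the risk genes.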

How the data were processed

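The authors deposited 1 table that pairs counts of reads with TPM for each gene in each library. Of the deposited counts, 86.9% to 87.5% per library were whole numbers, so they were treated as estimated counts and rounded. TPM values were deposited as scaled by the authors for length and library total. The submitters' processing notes name STAR 2.7.11b, featureCounts 2.0.6 and GRCh38. The annotation is not given in the sources used here.

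Genes were filtered with filterByExpr, scaled by TMM and compared with edgeR 4.0.16 (quasi-likelihood test, robust, two-sided, Benjamini-Hochberg over all 13842 genes, threshold 0.05) in R 4.3.3. The test was checked on simulated data. SE was taken as the log2 difference over the square root of F, and intervals use the t distribution. Alternatives used DESeq2 1.42.0, limma 3.58.1, other scalings and filters, log2(TPM + 1) and log2(TPM + 0.1), and each library left out. Ratios between genes used TPM with 0.1 added. No molecular identifiers are mentioned, so counting error leaves out amplification.

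The members, lists and tests were chosen with earlier results of these data known. All 8 members were named, with up to 2 genes per list and direction by smallest p-value. Genes called with the block beyond these were named after their values were seen, as were the implied lengths.

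The chi-square per gene between libraries was 3.16 to 21.1, above the 1 that sampling gives, so no library was a duplicate. Deviations from group means correlated at 0.181, 0.388 and 0.129 (12186 genes) between libraries numbered 1, 2 and 3. All exceed the minimum of 0.1 set here, so the numbers were taken as pairs, from the data alone. Vehicle replicate 3 correlated more with Aβ42 replicate 1 (0.177) than with Aβ42 replicate 3 (0.129). Vehicle replicate 1 correlated with Aβ42 replicate 3 at 0.154. These values set number 2 apart and do not decide how numbers 1 and 3 pair. The labels name no pairs, so calls made with the block rest on this assumption.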

Additional observations from a re-analysis of the deposited data

How the results depend on the processing

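Alternatives that leave out the libraries numbered 2 in both groups were added after the data were seen, and the others were planned. The cause of the changes below was not tested. Genes past the adjusted threshold, 0 in the main fit, numbered 360 without a filter on low counts, 804 with DESeq2, 2457 with limma-voom and quality weights, 1962 with the replicate block, and 2316 and 2035 with number 2 left out, without and with the block. Members past it, 0 in the main fit, were 1 with quality weights (BIN1), 1 with the replicate block (BIN1), and 1 (BIN1) and 2 (BIN1 and ABCA7) with number 2 left out. Members at an unadjusted p-value under 0.05 numbered 1 in the main fit, beside 3302 of all tested genes. They were 2 with upper-quartile scaling (3324 genes), as log2(TPM + 1) (3284 genes) and as log2(TPM + 0.1) (3270 genes). With quality weights they were 4 (4830 genes) and with the replicate block 3 (4060 genes). With number 2 left out they were 4 and 4 (4376 and 4129 genes, without and with the block). The count over all genes changed too, so these counts are not read as a result about the members. Genes of the 8 lists past the adjusted threshold, 0 in the main fit, were 2 without a filter, 7 with DESeq2, 31 with quality weights, 24 with the replicate block, and 27 and 22 with number 2 left out. Members without overlap numbered 4 with upper-quartile scaling, for which the share of all genes is not given here.

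Across the fits that each left out 1 library, genes at an unadjusted p-value under 0.05 ran from 1871 to 5170 (3302 in the main fit), genes past the adjusted threshold from 0 to 3224, members past it from 0 to 3, members at an unadjusted p-value under 0.05 from 1 to 4, and genes of the lists past it from 0 to 41. Calls past the adjusted threshold were made in 1 of these 6 fits, without Aβ42 replicate 2. Members without overlap ran from 2 to 4 and ratios without overlap from 0 to 2, which include RIN3 to RIN2 (without vehicle replicate 3) and FERMT2 to FERMT1 (without vehicle replicate 2), both resting on at most 8 counts per library of 1 gene. Groups with fewer libraries separate more easily, and the share of all genes without overlap in these sets is not given here. These counts are therefore not read as a result about the members.

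PICALM turned negative as log2(TPM + 1) (-0.0444) and as log2(TPM + 0.1) (-0.0447), where the median of all genes was -0.04 and -0.043, without vehicle replicate 2 (-0.0242), Aβ42 replicate 1 (-0.0056) or Aβ42 replicate 3 (-0.0011), and with number 2 left out (-0.0076 without and with the block), and its highest value was 0.0278, without vehicle replicate 3. The other 6 tested members kept their sign in all 17 alternatives. With all 6 libraries the block changed the call of BIN1 and of no other member. With number 2 left out in both groups, it changed that of ABCA7 (edgeR adjusted p-value 0.0574 without and 0.0495 with the block). Depth limits RIN3, at 2 to 8 counts.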
